A study of Sus scrofa with 18 samples.

Results

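The change of the masseter, a chewing muscle, over 5 days of experimental critical illness was set against the change of the biceps femoris, a thigh muscle, in pigs. All 18 of the 18 arrays of the series were used, in 4 groups by muscle and day. They comprised 5 masseter arrays of day 5, 5 masseter arrays of day 1, 4 biceps femoris arrays of day 5 and 4 biceps femoris arrays of day 1. The quantity examined for each probe set was the masseter change (day 5 minus day 1) minus the biceps femoris change, on a log2 scale. It was tested in 23999 of the 24123 probe sets of the array, the other 124 being array controls. A positive difference means that the masseter rose more or fell less than the biceps femoris.

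The samples came from 5 female domestic piglets of 26.9 kg on average, of which 4 gave the biceps femoris samples, per the protocol. The breed tag of all 18 samples names Eurasian wild boar instead, and the labels do not settle which holds. Every animal was kept under isoflurane anaesthesia on a ventilator for 5 days. Each received the neuromuscular blocker pancuronium (0.1 mg/kg/h), the corticosteroid betamethasone (0.1 mg/kg, 2 doses a day) and E. coli endotoxin (36 µg/kg/h for 1 h). The titles call day 5 the treatment and day 1 the control, whereas the source label of the biceps femoris day 1 arrays names the treatment too, and the titles were followed here. The masseter day 1 arrays are labelled untreated. No untreated animals of day 5 are analysed here, so the treatment and the passage of time cannot be told apart. The protocol says that both muscles were taken from the same animals. The biceps femoris labels do not say which animal gave which array, so the arrays of both muscles entered the test as independent.

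In intensive care, long immobilisation with blockade of the neuromuscular junction, corticosteroids and sepsis can lead to acute quadriplegic myopathy, in which limb muscle is paralysed and loses myosin while the muscles of the head are often spared. Slow muscle fibres carry their own isoforms of myosin, troponin and the calcium pump and burn fatty acids. Fast fibres rely more on glycogen and on a different set of isoforms. The masseter develops from the head mesoderm and the biceps femoris from the trunk somites, and genes of the HOX clusters mark positions along the trunk and limbs. The series title asks how the function of the chewing muscles is spared relative to the biceps femoris in this model.

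The authors had normalized the muscles apart. Once sorted, the values of masseter arrays lay within 0.223 of each other and those of biceps femoris arrays within 0.230, whereas arrays of different muscles were at least 0.517 apart. Levels are therefore not compared between the muscles. TNNT3, the fast troponin T of skeletal muscle, lay between 13.54 and 14.54 on all 18 arrays. Day 5 replicate 1 stood apart in both muscles, with array weights of 0.337 in masseter and 0.386 in biceps femoris, against 0.762 to 1.94 on the other 16 arrays. In biceps femoris that array had a 3' minus 5' difference of the actin control of 2.05, against 1.04 to 1.15 on the other day 5 arrays. The BioC control RNA, added at hybridisation, averaged 9.88 ± 0.16 in masseter at day 5 and 10.01 ± 0.23 at day 1 (SD, n = 5 each). It averaged 7.58 ± 0.15 in biceps femoris at day 5 and 8.73 ± 0.52 at day 1 (SD, n = 4 each; exact permutation test, two-sided, p = 0.0286, the smallest p that 4 against 4 arrays allow). Day 1 replicate 4 of the biceps femoris, at 7.97, lay next to the day 5 arrays.

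Few probe sets passed the test of a difference between the muscles' changes. Of 23999 probe sets, 48 (0.2%) passed an adjusted p under 0.05 in limma, 16 with a positive difference (0.0667%) and 32 with a negative difference (0.133%). Their differences were between 0.57 and 2.94 in size, and 29 of them were at least 2-fold. With 1 probe set per gene, 7 genes had a called positive (0.0706%) and 17 a called negative difference (0.172%). Within the muscles, far more probe sets were called, 3318 in masseter (13.8%; 1755 or 7.31% rose and 1563 or 6.51% fell) and 4117 in biceps femoris (17.2%; 2373 or 9.89% rose and 1744 or 7.27% fell). Of these, 1607 were called in both muscles in the same direction and 1 in opposite directions. A difference of changes carries the error of both changes and is estimated less precisely than either. Its lower count therefore does not show that the muscles responded alike. Over all probe sets the median difference was -0.02, and 2961 (12.3%) had an unadjusted p under 0.05, of which 1233 were positive (5.14%) and 1728 negative (7.2%).

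**Figure D1:**
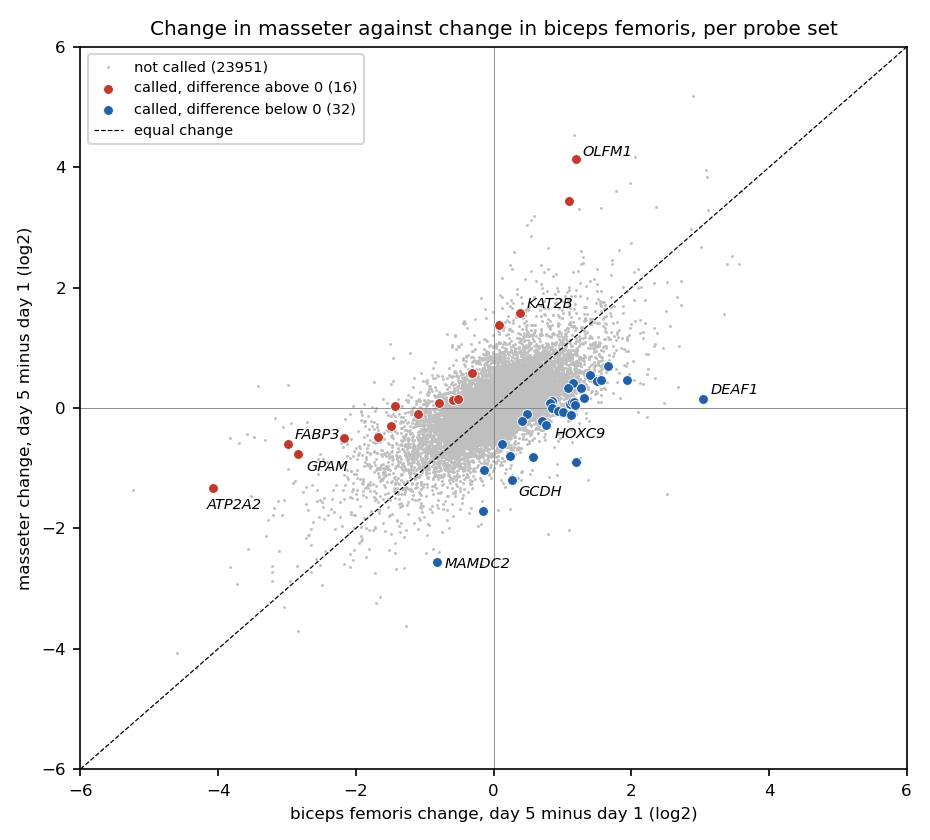
Each point is 1 of 23999 probe sets, with its biceps femoris change on the horizontal and its masseter change on the vertical axis, both day 5 minus day 1 in log2 units. The 16 called positive differences (red) lie above the line of equal change and the 32 called negative ones (blue) below it, most of them nearer to 0 on the masseter axis than on the biceps femoris axis. The points marked ATP2A2 and DEAF1 are single probe sets of genes with several.

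In 36 of the 48 called probe sets the larger change was that of the biceps femoris, and in 12 that of the masseter. Of the 32 negative differences, 17 belonged to probe sets that rose in biceps femoris without a call in masseter, and 7 to probe sets that rose in both muscles. A further 7 fell in masseter without a call in biceps femoris, and 1 fell in both. Of the 16 positive differences, 8 belonged to probe sets that fell in biceps femoris without a call in masseter, and 3 to probe sets that fell in both. The other 5 rose in masseter, 3 of them without a call in biceps femoris and 2 in both muscles. The day 5 and day 1 arrays did not overlap in 22 of the 48 probe sets in masseter and in 42 of the 48 in biceps femoris, against 11.4% and 22.2% of all probe sets. The 48 were picked by a test on these same arrays, so shares above those of all probe sets are no separate support. Groups of 4 arrays also separate by chance more readily than groups of 5.

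The calls stood close to the threshold. With the masseter animal as a block, which the labels give, 21 probe sets were called (8 positive, 13 negative), of which 17 were among the 48. Leaving out 1 array at a time gave between 9 and 266 calls, and 9 of the 48 probe sets were called in each of these 18 fits. These 9 represent FABP3, AHCYL1, HOXC9, CD164, ZNF79 and GCDH, or are further probe sets annotated to ATP2A2, DEAF1 and the NPL4 protein. With the biceps femoris arrays split into sets by their BioC level as a block, 49 probe sets were called, of which 4 were among the 48, namely those of HOXC9, GCDH, ITGB6 and LYAR. That block sets the day 5 arrays of the biceps femoris against day 1 replicate 4 alone. All 48 differences kept their sign in both fits.

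The first group holds genes that fell in biceps femoris and fell less, or were not called, in masseter. FABP3, which encodes the fatty acid carrier of heart and slow muscle, had log2 values of 11.75, 11.83, 11.66, 11.26 and 10.80 in masseter at day 5, against 12.22, 11.38, 11.95, 12.33 and 12.39 at day 1. In biceps femoris it had 9.83, 9.92, 9.17 and 9.43 at day 5, against 12.92, 12.61, 12.72 and 12.04 at day 1. The days overlapped in masseter, where replicate 2 was higher at day 5 than at day 1, and lay more than 2 log2 units apart in biceps femoris. FABP3 fell 7.91-fold in biceps femoris (change -2.98, SE 0.23, adjusted p = 0.000224), while its masseter change was -0.59 (SE 0.24, adjusted p = 0.127). The difference of the changes was 2.39 (SE 0.35, adjusted p = 0.0107).

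AHCYL1 encodes a protein related to adenosylhomocysteinase that binds the inositol trisphosphate receptor. In masseter it had 8.18, 8.11, 7.87, 8.0 and 7.85 at day 5, against 8.36, 8.74, 8.51, 8.38 and 8.42 at day 1, without overlap. Biceps femoris values were 7.93, 7.75, 7.65 and 7.88 at day 5, against 9.38, 9.73, 9.50 and 9.29 at day 1, again without overlap. AHCYL1 thus fell in both muscles, by 0.48 in masseter and by 1.67 in biceps femoris, with a difference of 1.19 (SE 0.15, adjusted p = 0.00644). Its other probe set had a difference of 1.47 (adjusted p = 0.0149), with a masseter change of 0.04 and a biceps femoris change of -1.43.

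GPAM encodes the mitochondrial enzyme that starts the synthesis of triglycerides and phospholipids. It had 6.47, 7.46, 7.02, 7.41 and 7.62 in masseter at day 5, against 8.0, 7.56, 8.34, 8.27 and 7.61 at day 1, and 5.83, 5.69, 5.54 and 6.04 in biceps femoris at day 5, against 8.92, 8.58, 9.27 and 7.69 at day 1. The days overlapped narrowly in masseter and were well apart in biceps femoris, where GPAM fell 7.15-fold. The difference was 2.08 (SE 0.40, adjusted p = 0.0465, and 0.092 with the animal block). Its other 4 probe sets had differences between -0.00 and 1.02, none of them called by limma (adjusted p = 0.1 to 0.998).

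ITGB6, an integrin subunit, had low signals, between 3.00 and 3.22 in masseter at day 5 and between 3.30 and 3.85 at day 1. Its values in biceps femoris were 3.58, 3.27, 3.01 and 3.54 at day 5, against 5.11, 4.75, 6.14 and 6.07 at day 1. It fell in both muscles, with a difference of 1.68 (SE 0.33, adjusted p = 0.0467, and 0.105 with the animal block). Its other probe set did not show the fall, with changes of 0.04 in masseter and -0.06 in biceps femoris and a difference of 0.10 (adjusted p = 0.758). The mean signal of that probe set was 3.18 over all arrays, so low that a fall could hardly show. Of ATP2A2, the calcium pump of slow fibres, 1 of 4 probe sets was called, with a masseter change of -1.32, a biceps femoris change of -4.07 and a difference of 2.75 (SE 0.41, adjusted p = 0.0107, and 0.0537 with the animal block). The other 3 had differences of 1.12 to 1.32 that did not pass (adjusted p = 0.189 to 0.392).

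Smaller differences of the same kind were found in single probe sets of PTPRD, UQCC1 and MED27 that do not represent their gene, and in 2 probe sets named by product only. The PTPRD probe set, of a receptor tyrosine phosphatase, had changes of -0.10 in masseter and -1.09 in biceps femoris. The other PTPRD probe sets had differences of -0.05 to 1.31 (adjusted p = 0.114 to 0.991), and the one of highest signal rose by 0.37 in each muscle. The other MED27 probe sets had differences of -0.09 to -0.01 (adjusted p = 0.935 to 0.984). The other UQCC1 probe set fell in both muscles, with a difference of 0.55 (adjusted p = 0.317). The probe set annotated as D-glucuronyl C5-epimerase, an enzyme of heparan sulfate synthesis, had changes of -0.30 in masseter and -1.48 in biceps femoris. The probe set annotated as an enigma-like LIM protein had changes of 0.14 in masseter and -0.52 in biceps femoris. Each of the 5 called probe sets fell in biceps femoris without a call in masseter, and each lost its call with the animal block (adjusted p = 0.06 to 0.0948). These 5 were named after their values were seen.

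The second group rose in masseter, and rose less or was not called in biceps femoris. OLFM1, a secreted olfactomedin protein known from the nervous system, had 10.09, 10.27, 9.06, 7.95 and 8.78 in masseter at day 5, against 5.06, 5.38, 5.09, 5.27 and 4.68 at day 1. In biceps femoris it had 8.25, 6.57, 6.88 and 6.87 at day 5, against 5.69, 6.02, 5.82 and 6.25 at day 1. In both muscles every day 5 array lay above every day 1 array, with the gap wider in masseter. OLFM1 rose 17.6-fold in masseter and 2.29-fold in biceps femoris, a difference of 2.94 (SE 0.57, adjusted p = 0.0465, and 0.0672 with the animal block). Of its other 2 probe sets, 1 had a difference of 1.70 (adjusted p = 0.213) and 1, with low signals, of -0.01.

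KAT2B, the histone acetyltransferase also known as PCAF, had 11.59, 11.72, 12.15, 11.52 and 11.43 in masseter at day 5, against 9.86, 10.33, 10.19, 10.16 and 9.93 at day 1. The biceps femoris arrays read 10.78, 10.34, 10.49 and 10.31 at day 5, against 10.16, 10.16, 9.97 and 10.08 at day 1. The days lay more than 1 log2 unit apart in masseter and just apart in biceps femoris. The masseter change of 1.59 was a 3.00-fold rise (SE 0.14, adjusted p = 0.00024), its biceps femoris change was 0.38 (SE 0.12, adjusted p = 0.0585), and the difference was 1.20 (SE 0.20, adjusted p = 0.0263).

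OPCML, a cell adhesion molecule of the nervous system, rose in masseter by 0.58 and had a change of -0.31 in biceps femoris (adjusted p = 0.0794), with a difference of 0.89 (SE 0.17, adjusted p = 0.0466). Its other probe set went against the masseter rise: it fell by 0.73 in masseter (adjusted p = 0.00682) and fell by 0.48 in biceps femoris (adjusted p = 0.0345), with a difference of -0.25 (adjusted p = 0.646). A probe set annotated as a mannosylglycoprotein N-acetylglucosaminyltransferase, an enzyme that branches N-glycans, rose 2.59-fold in masseter with a change of 0.08 in biceps femoris (difference 1.29, SE 0.23, adjusted p = 0.0421, and 0.0657 with the animal block). A probe set without any annotated gene rose 10.8-fold in masseter and 2.14-fold in biceps femoris (difference 2.34, SE 0.45, adjusted p = 0.0455).

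**Figure D2:**
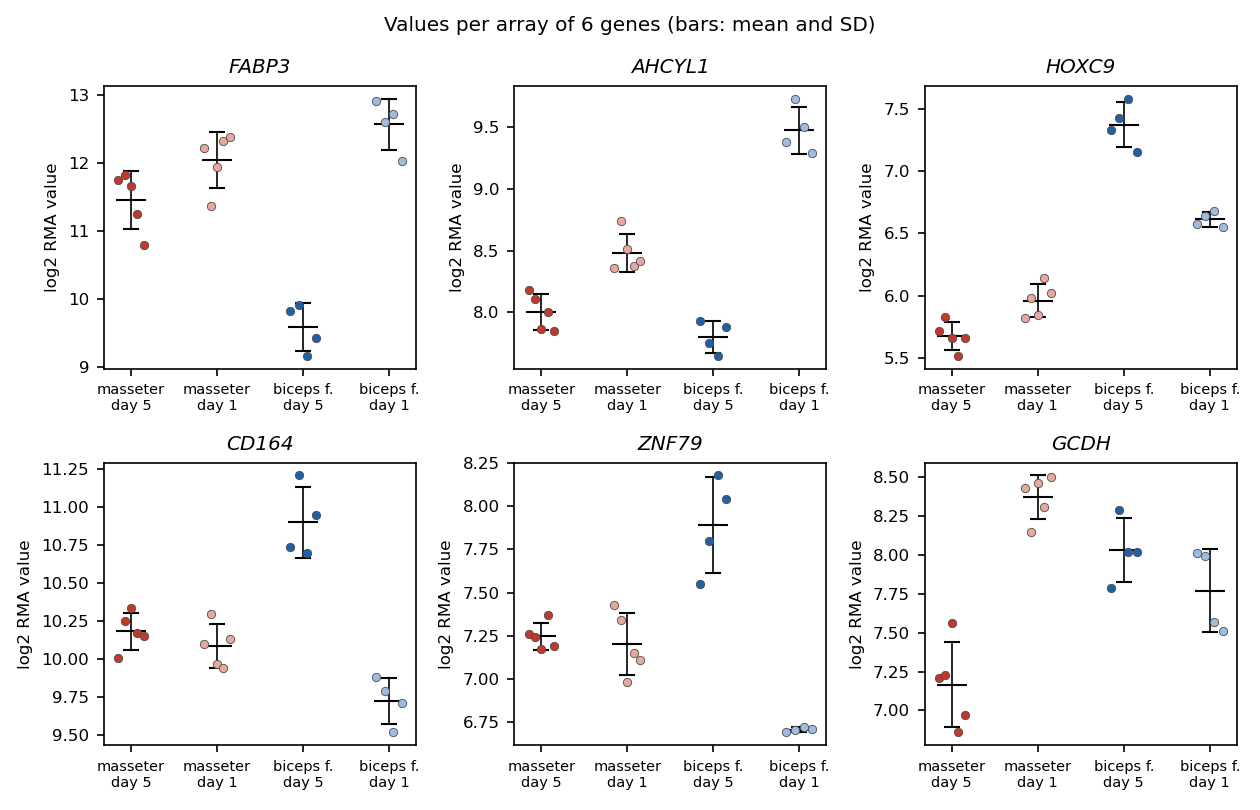
Log2 RMA values of the 6 genes whose representing probe set was called in each fit that left out 1 array, for masseter (red) and biceps femoris (blue), day 5 left of day 1. Points are arrays (5 per masseter group, 4 per biceps femoris group), and bars give the mean and SD. FABP3 and AHCYL1 have their widest gap between the days in biceps femoris, with day 5 below, HOXC9, CD164 and ZNF79 have it there with day 5 above, and GCDH has it in masseter with day 5 below.

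The third and most numerous group rose in biceps femoris and rose less, or was not called, in masseter. HOXC9, a homeobox transcription factor of the trunk and hind limb, had 5.72, 5.83, 5.66, 5.52 and 5.66 in masseter at day 5, against 5.82, 5.98, 5.85, 6.14 and 6.02 at day 1. Biceps femoris values were 7.33, 7.43, 7.58 and 7.15 at day 5, against 6.58, 6.64, 6.68 and 6.55 at day 1. The days overlapped by the width of 1 array in masseter and were apart in biceps femoris. HOXC9 rose 1.69-fold in biceps femoris (change 0.76, SE 0.10, adjusted p = 0.00172), its masseter change was -0.28 (SE 0.09, adjusted p = 0.0632), and the difference was -1.04 (SE 0.13, adjusted p = 0.00644). This was also the smallest adjusted p of all probe sets, shared with AHCYL1.

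CD164, a mucin-like membrane protein that cycles to lysosomes, had 10.01, 10.25, 10.34, 10.17 and 10.15 in masseter at day 5, against 10.10, 10.30, 9.97, 9.94 and 10.13 at day 1. It had 10.74, 11.21, 10.70 and 10.95 in biceps femoris at day 5, against 9.88, 9.79, 9.52 and 9.71 at day 1. The masseter days overlapped throughout. CD164 rose 2.26-fold in biceps femoris, with a difference of -1.08 (SE 0.16, adjusted p = 0.0107), and its other 2 probe sets had differences of -1.03 and -0.80 (adjusted p = 0.0838 and 0.118).

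ZNF79, a zinc finger protein, had 7.26, 7.24, 7.17, 7.37 and 7.19 in masseter at day 5, against 7.43, 7.34, 6.98, 7.15 and 7.11 at day 1. In biceps femoris it had 7.55, 7.80, 8.18 and 8.04 at day 5, against 6.69, 6.70, 6.72 and 6.71 at day 1. The days overlapped in masseter, while the biceps femoris day 1 arrays lay within 0.03 of each other and below all day 5 arrays. The difference was -1.14 (SE 0.16, adjusted p = 0.0107).

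STRBP, an RNA-binding protein, rose 3.83-fold in biceps femoris with a masseter change of 0.47 (adjusted p = 0.13), a difference of -1.46 (SE 0.28, adjusted p = 0.0455, and 0.0709 with the animal block). Its other probe set had a difference of -1.25 (adjusted p = 0.0554). RPA3, the small subunit of the single-strand DNA-binding complex RPA, rose 2.18-fold in biceps femoris (difference -1.24, SE 0.22, adjusted p = 0.0376, and 0.0794 with the animal block). GRHPR, an enzyme that clears glyoxylate, rose 2.16-fold (difference -1.04, SE 0.20, adjusted p = 0.0455, and 0.0672 with the block), and WASHC5, a subunit of the WASH complex of endosomes, 1.8-fold (difference -0.85, SE 0.17, adjusted p = 0.0467, and 0.092 with the block). The masseter changes of RPA3, GRHPR and WASHC5 lay between -0.12 and 0.07. LYAR, a nucleolar protein, rose in both muscles, 1.26-fold in masseter and 2.41-fold in biceps femoris (difference -0.93, SE 0.16, adjusted p = 0.0369, and 0.0805 with the block).

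Among probe sets that do not represent their gene, the widest difference was that of 1 probe set of DEAF1, a transcription factor. It had 6.38, 7.65, 6.29, 6.0 and 6.01 in masseter at day 5, against 6.26, 6.43, 6.16, 6.37 and 6.33 at day 1, and 8.80, 8.34, 9.88 and 8.73 in biceps femoris at day 5, against 5.98, 5.87, 5.75 and 5.97 at day 1. The biceps femoris day 5 arrays all lay above 8, and masseter day 5 replicate 2 above all other masseter arrays. It rose 8.26-fold in biceps femoris, with a difference of -2.89 (SE 0.42, adjusted p = 0.0107). The other 4 probe sets of DEAF1 had differences between -0.20 and -0.09, none of them called by limma (adjusted p = 0.686 to 0.922).

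A probe set annotated as the NPL4 protein, a cofactor of the p97 ATPase that extracts ubiquitinated proteins, rose 1.37-fold in masseter and 2.83-fold in biceps femoris (difference -1.05, SE 0.15, adjusted p = 0.0107). Of UBE4A, which extends ubiquitin chains, 1 of 3 probe sets had a called difference (-0.95, adjusted p = 0.0451). It rose 1.63-fold in masseter and 3.15-fold in biceps femoris. A UBE4A probe set of higher signal also rose in both muscles, by 0.43 and 0.82, with a difference of -0.39 (adjusted p = 0.281). Of SRP68, a subunit of the signal recognition particle, 1 of 2 had a called difference (-1.09, adjusted p = 0.0369, and 0.0672 with the animal block). It rose 1.38-fold in masseter and 2.95-fold in biceps femoris. The other SRP68 probe set rose by 1.22 in biceps femoris, with a masseter change of 0.42 (adjusted p = 0.0933) and a difference of -0.81 (adjusted p = 0.0989). Small called differences among representing probe sets, which were picked once their values were known, belonged to HDAC3 (-0.63), RAB7A (-0.71), KDELR1 (-0.72) and CCZ1B (-0.73). RAB7A and CCZ1B belong to the transport of late endosomes and lysosomes. KDELR1 returns proteins to the endoplasmic reticulum and HDAC3 is a histone deacetylase. With the animal block KDELR1 remained called (adjusted p = 0.0447) and the other 3 did not (0.0672 to 0.0984). CCZ1B rose in both muscles, and KDELR1 and HDAC3 rose in biceps femoris. RAB7A lies outside this group, since it fell in masseter and had a change of 0.12 in biceps femoris (adjusted p = 0.481).

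The fourth group fell in masseter and fell less, or was not called, in biceps femoris. GCDH, the mitochondrial dehydrogenase of lysine and tryptophan breakdown, had 7.21, 7.23, 7.56, 6.86 and 6.97 in masseter at day 5, against 8.43, 8.15, 8.46, 8.31 and 8.50 at day 1. Its biceps femoris values were 7.79, 8.29, 8.02 and 8.02 at day 5, against 8.01, 7.99, 7.57 and 7.51 at day 1. The days were apart in masseter and overlapped in biceps femoris. GCDH fell 2.30-fold in masseter (change -1.20, SE 0.13, adjusted p = 0.000557), its biceps femoris change was 0.26 (SE 0.16, adjusted p = 0.311), and the difference was -1.47 (SE 0.21, adjusted p = 0.0107).

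MMUT, the mitochondrial mutase of propionate metabolism, had 7.45, 6.92, 7.27, 7.09 and 7.27 in masseter at day 5, against 8.11, 7.89, 7.62, 8.17 and 8.22 at day 1. It had 7.86, 7.81, 7.96 and 8.05 in biceps femoris at day 5, against 7.61, 7.68, 7.68 and 7.71 at day 1. The days were apart in both muscles, with day 5 lower in masseter and higher in biceps femoris. MMUT fell 1.74-fold in masseter, its biceps femoris change of 0.24 did not pass (adjusted p = 0.079), and the difference was -1.04 (SE 0.17, adjusted p = 0.0263).

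MAMDC2, a proteoglycan of the matrix, had 3.90, 4.04, 3.75, 3.70 and 3.64 in masseter at day 5, against 6.35, 5.47, 6.75, 6.50 and 6.74 at day 1. The biceps femoris arrays read 3.18, 3.94, 3.32 and 3.28 at day 5, against 4.30, 4.66, 4.04 and 3.99 at day 1. It fell in both muscles without overlap of the days, 5.88-fold in masseter and 1.76-fold in biceps femoris. Signals were low in both muscles at day 5, and in biceps femoris already at day 1 (3.99 to 4.66). Whether low signal limited the size of the biceps femoris fall was not tested. The difference was -1.74 (SE 0.32, adjusted p = 0.0451, and 0.0827 with the animal block). A probe set that the pig annotation names ZXDC and the authors' homolog column names SLC41A3 fell 3.27-fold in masseter with a change of -0.15 in biceps femoris (difference -1.56, SE 0.30, adjusted p = 0.0467, and 0.0805 with the block).

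Further probe sets of this kind, also named after their values were seen, were 1 of COL24A1, a collagen, and 2 named by product. The COL24A1 probe set fell by 0.82 in masseter and had a change of 0.57 in biceps femoris (difference -1.39, adjusted p = 0.0467, and 0.0984 with the block). The other 9 COL24A1 probe sets had differences of -0.26 to 0.40, none of them called by limma (adjusted p = 0.414 to 0.943), and 1 of them fell in both muscles, by 0.73 in masseter and 1.12 in biceps femoris. The probe set annotated as a guanine nucleotide release factor of RAN, the GTPase of nuclear transport, fell by 1.03 in masseter and had a change of -0.14 in biceps femoris (difference -0.90, adjusted p = 0.0455). The probe set annotated as an associated molecule of the SH3 domain of STAM, a protein of endosomal sorting, fell by 0.89 in masseter and had a change of 1.19 in biceps femoris (adjusted p = 0.053), with a difference of -2.08 (adjusted p = 0.0455, and 0.0827 with the block).

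BCKDHB, a subunit of the branched-chain ketoacid dehydrogenase, was the gene of the only probe set called in both muscles in opposite directions. It had 8.17, 6.88, 7.51, 6.43 and 6.34 in masseter at day 5, against 8.16, 8.17, 7.99, 8.39 and 8.22 at day 1, and 8.77, 9.94, 9.93 and 9.61 in biceps femoris at day 5, against 8.76, 8.64, 8.54 and 8.64 at day 1. In masseter replicate 1 alone did not lie below the day 1 arrays, and in biceps femoris replicate 1 stayed next to day 1. BCKDHB fell by 1.12 in masseter (adjusted p = 0.0363) and rose by 0.92 in biceps femoris (adjusted p = 0.0347), yet the difference of -2.04 (SE 0.43) missed the threshold (adjusted p = 0.0655). It was -2.31 without day 5 replicate 1 of masseter (adjusted p = 0.0164) and -2.30 without that of the biceps femoris (adjusted p = 0.0163). No other fit that left out 1 array called BCKDHB.

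The 33 gene lists and 10 cell type marker lists held 1194 genes, of which 1036 were measured, and FABP3 was the 1 list gene called in the difference. Lists are therefore described by their medians and by the number of members with an unadjusted p under 0.05, which over all 9910 genes was reached by 620 upward (6.26%) and 823 downward (8.3%), with a median difference of -0.02. Of all genes, 9.61% rose and 8.34% fell in masseter, and 13.4% rose and 9.61% fell in biceps femoris.

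Slow-fibre genes fell in biceps femoris more often than in masseter by count. All 13 measured ones had a positive difference, 10 with an unadjusted p under 0.05, and the median was 2.07. In masseter 4 fell (median change -0.49), and in biceps femoris 9 fell (median change -2.09). PLN, phospholamban, which restrains the slow calcium pump, had 9.41, 9.60, 9.42, 9.43 and 9.69 in masseter at day 5, against 10.02, 10.04, 9.57, 9.66 and 9.12 at day 1, and 8.96, 6.71, 6.86 and 9.25 in biceps femoris at day 5, against 11.19, 11.11, 11.73 and 10.44 at day 1. The masseter days overlapped, and the biceps femoris day 5 arrays split into 2 near 9 and 2 near 7. PLN had the smallest adjusted p of the list, 0.0555 for a difference of 3.00 (SE 0.61).

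MYH7, the slow myosin heavy chain, had 13.94, 14.43, 14.50, 14.26 and 14.22 in masseter at day 5, against 14.60, 14.31, 14.67, 14.56 and 14.42 at day 1. In biceps femoris it had 13.17, 9.74, 9.22 and 12.41 at day 5, against 14.15, 14.14, 14.16 and 13.87 at day 1. The same 2 biceps femoris arrays, replicates 2 and 3 of day 5, were the lowest. MYH7 fell in biceps femoris (change -2.94, adjusted p = 0.0421) while its masseter change was -0.24 (adjusted p = 0.199), and the difference of 2.70 (SE 0.80) had an adjusted p of 0.171. TNNT1 and TNNI1, the slow troponins T and I, had differences of 3.32 (SE 0.92, adjusted p = 0.153) and 2.99 (SE 0.87, adjusted p = 0.168). Another TNNI1 probe set, of lower signal, had changes of -0.17 in masseter and -0.21 in biceps femoris, with a difference of 0.04 (adjusted p = 0.92). CSRP3, a Z-disc protein, had one of 3.87 (SE 1.46, adjusted p = 0.281), with masseter values spread from 7.81 to 12.05 at day 5 and from 8.91 to 13.29 at day 1. Without day 5 replicate 1 of the biceps femoris, the slow-fibre array mean of which was 11.59 against 8.78 to 10.82 on the other day 5 arrays, the median was 2.79 and 6 of the 13 were called, namely MYH7, MYL2, TNNT1, TNNI1, ATP2A2 and PLN. With array weights 5 were called. The median was 1.54 without day 5 replicate 2 of the biceps femoris, 1.44 without replicate 3 and 1.73 with the BioC block, and limma called 0 of the 13 in each of these fits, as in the fit of all arrays.

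Of the fast-fibre genes all 11 had a negative difference, 2 with an unadjusted p under 0.05, and the median was -0.25. In masseter 3 fell, and in biceps femoris none of the 11 was called by limma. TNNT3, fast troponin T, fell in masseter by 0.54 and had a change of -0.02 in biceps femoris (difference -0.52, SE 0.17, adjusted p = 0.198). Another TNNT3 probe set, of lower signal, had a change of 0.35 in masseter (adjusted p = 0.0819) and rose by 1.06 in biceps femoris (adjusted p = 0.00121), with a difference of -0.71 (adjusted p = 0.117). ATP2A1, the fast calcium pump, fell by 1.65 in masseter and had a change of -0.33 in biceps femoris (difference -1.32, SE 0.47, adjusted p = 0.248). The probe set of MYH4, whose homolog column names MYH2, had a difference of -1.04 (SE 0.61, adjusted p = 0.523).

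**Figure D3:**
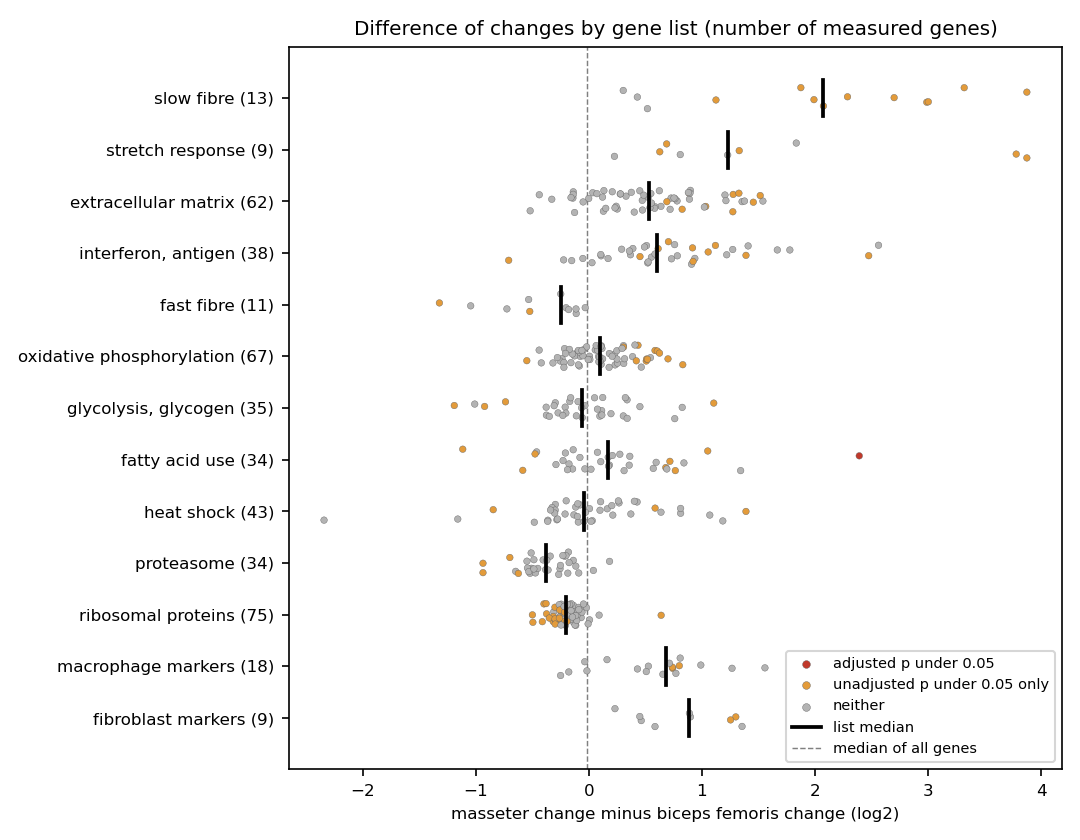
Difference of the changes (masseter minus biceps femoris, log2) for the measured genes of 13 lists, with the number of genes in brackets. Black bars are list medians and the dashed line is the median of all genes. The slow-fibre median lies at 2.07 and the fast-fibre median at -0.25, and FABP3, at 2.39 among the genes of fatty acid use, is the 1 called gene.

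CSRP3 is also on the list of genes that respond to stretch. All 9 stretch-response genes had a positive difference (median 1.23), 5 with an unadjusted p under 0.05, and 4 fell in masseter against 6 in biceps femoris. ANKRD2, an ankyrin repeat protein of slow fibres, had a difference of 3.78 (SE 0.92, adjusted p = 0.0995), with a masseter change of 0.36 and a fall of 3.42 in biceps femoris. XIRP2, an actin-binding protein of the intercalated disc and Z-disc, had a difference of 1.65 (SE 0.44, adjusted p = 0.129). The 22 sarcomere scaffold genes had a median of 0.25, and the 8 developmental and cardiac isoforms one of 0.63.

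The list of oxidative phosphorylation had 67 genes, 54 with a fall in masseter and 51 with one in biceps femoris, with a median difference of 0.10, and 11 had an unadjusted p under 0.05 upward against 1 downward. UQCRFS1, the Rieske subunit of complex III, had 12.88, 12.95, 12.85, 12.71 and 12.95 in masseter at day 5, against 13.54, 13.11, 13.47, 13.45 and 13.41 at day 1. Its values in biceps femoris were 11.50, 11.67, 11.65 and 11.54 at day 5, against 12.78, 12.60, 12.83 and 12.76 at day 1. The days were apart in both muscles, and the difference was 0.63 (SE 0.13, adjusted p = 0.0554). It passed in the fit of the mean over all probe sets of each gene, where 31 of 9910 genes were called (adjusted p = 0.0379). MB, myoglobin, fell by 0.85 in masseter and fell by 2.56 in biceps femoris (difference 1.70, SE 0.37, adjusted p = 0.0751). The medians of the lists of the citric acid cycle (0.02), glycolysis and glycogen (-0.06), fatty acid use (0.17), the energy buffer and oxygen supply (0.01) and metabolic regulators (0.13) lay near 0.

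Of 62 matrix genes, 7 fell and 2 rose in masseter, and 29 fell and 1 rose in biceps femoris. The median difference was 0.53, or 0.33 with the BioC block, and 9 had an unadjusted p under 0.05, all upward. TNXB, a tenascin of connective tissue, had a change of -0.67 in masseter (adjusted p = 0.103) and fell by 1.94 in biceps femoris (difference 1.28, SE 0.36, adjusted p = 0.158). Another TNXB probe set had a biceps femoris change of 0.12 and a difference of -0.36 (adjusted p = 0.324). COL1A1, the main chain of fibrillar collagen, had a difference of 1.35 (SE 0.70, adjusted p = 0.451), and its other 3 probe sets had differences of -0.01 to 1.21, none called by limma (adjusted p = 0.431 to 0.981). Markers of fibroblasts, which include collagens such as COL1A1 and COL3A1 and so are no independent measure, had all 9 differences positive (median 0.89). Their array mean was 8.78 to 10.53 in masseter at day 5 and 10.04 to 10.97 at day 1, and 8.69 to 9.92 in biceps femoris at day 5 and 10.63 to 11.23 at day 1. MFAP5, a microfibril protein on the marker list, fell in both muscles (difference 1.30, SE 0.44, adjusted p = 0.229). In whole muscle, fewer cells of a type and less RNA per cell cannot be told apart, and the part of fibroblast content in the matrix values was not tested.

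Of 75 ribosomal protein genes 38 rose in masseter and 63 in biceps femoris. The median difference was -0.21, with 28 unadjusted p under 0.05 downward and 1 upward. RPL13 had 13.15, 12.97, 12.92, 12.81 and 12.87 in masseter at day 5, against 12.74, 12.90, 12.66, 12.72 and 12.72 at day 1, and 12.27, 12.45, 12.47 and 12.38 in biceps femoris at day 5, against 11.62, 11.66, 11.72 and 11.79 at day 1. The days overlapped in masseter only, and the difference was -0.50 (SE 0.11, adjusted p = 0.0813). With the BioC block 9 of the 75 were called, all negative, and the median was -0.27. Of 44 genes of translation and the nucleolus 9 rose in masseter and 22 in biceps femoris (median difference -0.22), and RRS1, a ribosome assembly factor, had a difference of -1.25 (SE 0.29, adjusted p = 0.0864).

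Of 34 proteasome genes 10 rose in masseter and 29 in biceps femoris, with 32 negative differences and a median of -0.38. That median rests on day 5 replicate 1 of masseter. Its proteasome array mean was 10.07, below the 10.38 to 10.53 of the day 1 arrays, while the other masseter day 5 arrays had 11.13 to 11.46. In biceps femoris the mean was 11.03 to 11.27 at day 5 and 10.15 to 10.27 at day 1. Without that masseter array the median difference was -0.13. PSMC4, an ATPase subunit, had a difference of -0.94 (SE 0.31, adjusted p = 0.219), and its value on that array was 9.54 against 10.70 to 11.10 on the other masseter day 5 arrays.

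**Figure D4:**
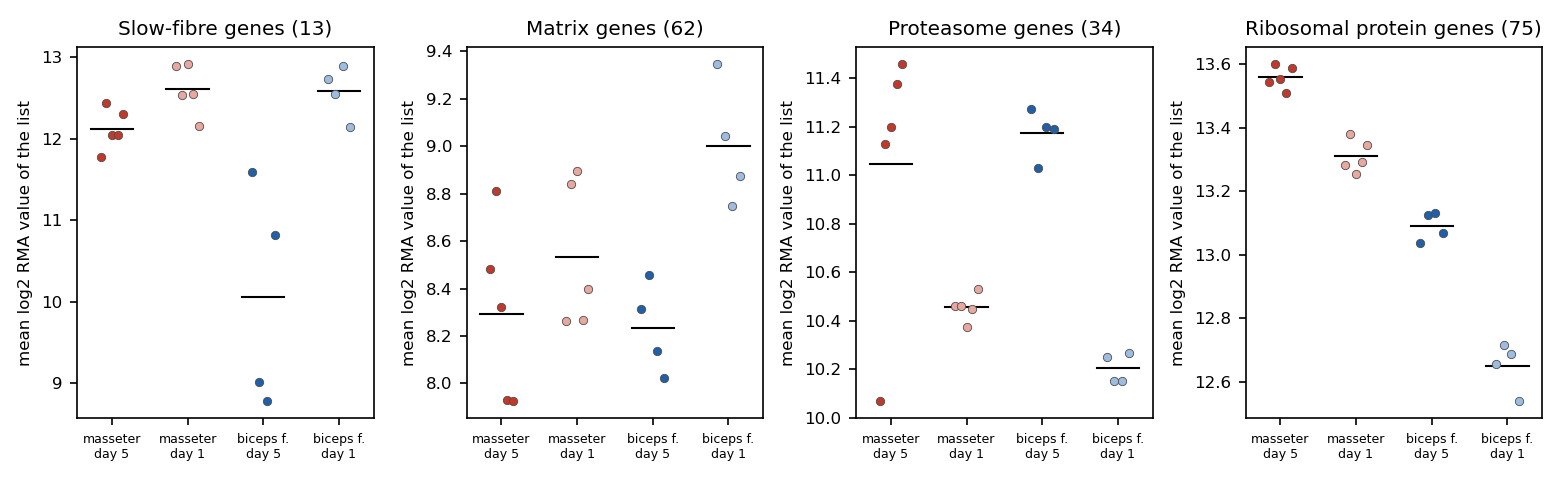
Mean log2 RMA value per array over the genes of 4 lists, for masseter (red) and biceps femoris (blue), day 5 left of day 1, with group means as bars. Slow-fibre means spread from 8.78 to 11.59 on the biceps femoris day 5 arrays, and 1 masseter day 5 array lies at 10.07 in the proteasome panel, below the day 1 arrays.

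The 43 heat shock genes had a median difference of -0.04, with 18 rising in masseter and 13 in biceps femoris. HSF2, a heat shock transcription factor, rose by 1.06 in masseter and had a change of -0.33 in biceps femoris (difference 1.39, SE 0.34, adjusted p = 0.0974). Its other probe set had changes of -0.30 in masseter and -0.33 in biceps femoris and a difference of 0.03. CRYAB, a small heat shock protein, rose by 1.26 in masseter and had a change of 0.07 in biceps femoris (difference 1.18, SE 0.64, adjusted p = 0.474). In biceps femoris its day 5 values were 13.45, 10.71, 10.61 and 12.30, with replicate 1 the highest, against 11.37 to 11.95 at day 1. HSPB1 had a difference of 0.21 (95% interval -0.99 to 1.41). The median difference was -0.15 for ubiquitin ligases, -0.12 for autophagy and lysosome genes and -0.03 for endoplasmic reticulum stress genes. FBXO32, atrogin-1, rose by 1.42 in masseter and had a change of 0.78 in biceps femoris, and the interval of its difference ran from -0.71 to 1.99.

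Of 38 interferon and antigen presentation genes 34 had a positive difference, with a median of 0.60, though 5 fell and 1 rose in biceps femoris and 3 fell in masseter. Their biceps femoris array means were 7.31 to 8.14 at day 5, against 9.31, 8.75, 7.72 and 8.15 at day 1. The median was 0.39 without day 1 replicate 1 of the biceps femoris and 0.25 with the BioC block. The probe set named ISG15, the member with the smallest p, has SET in the homolog column and had a negative difference (-0.71, SE 0.16, adjusted p = 0.0842), while another probe set named ISG15 had one of 1.12 (adjusted p = 0.649).

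Markers of macrophages and other leukocytes had a median difference of 0.68 over 18 genes. In masseter 3 rose and 1 fell, and in biceps femoris none of the 18 was called by limma. Their array mean was 6.77 to 7.86 in masseter at day 5 and 6.48 to 6.91 at day 1, highest on day 5 replicate 1, and 6.56 to 6.99 in biceps femoris at day 5 and 6.33 to 7.23 at day 1. FCER1G, a signalling chain of Fc receptors, had a difference of 0.80 (SE 0.27, adjusted p = 0.216). Complement and coagulation genes had a median of 0.46. Median differences of the remaining markers were -0.10 for neutrophils, -0.03 for lymphocytes, 0.28 for endothelium, 0.27 for smooth muscle and pericytes, -0.23 for adipocytes, 0.43 for satellite cells, -0.03 for Schwann cells and nerve and 0.11 for erythrocytes. Their part in the differences was not tested.

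Among growth signals, MSTN, myostatin, which limits muscle growth, had 7.46, 5.44, 6.61, 5.69 and 4.09 in masseter at day 5, against 7.59, 8.35, 7.68, 7.67 and 8.43 at day 1. Its biceps femoris values were 5.62, 9.66, 8.49 and 7.44 at day 5, against 6.68, 6.53, 7.50 and 7.31 at day 1. The days were apart in masseter, with replicate 1 nearest to day 1, and overlapped in biceps femoris, where replicate 1 was the lowest array. MSTN fell by 2.09 in masseter and had a change of 0.80 in biceps femoris (adjusted p = 0.54), and the difference of -2.88 (SE 0.95) had an adjusted p of 0.213. Without day 5 replicate 1 of the biceps femoris it was -3.61 (adjusted p = 0.0403), and no other fit that left out 1 array called MSTN. ID2, an inhibitor of helix-loop-helix factors, rose by 2.86 in masseter and had a change of 0.54 in biceps femoris (difference 2.32, SE 0.67, adjusted p = 0.168). The other ID2 probe sets had masseter changes of -0.11 and 0.19, with differences of -0.28 and 0.05 (adjusted p = 0.409 and 0.931). The whole list of 45 growth and atrophy signals had a median of -0.04.

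RUNX1, whose protein regulates transcription and which is induced when muscle loses its nerve, had 9.19, 10.29, 10.52, 10.52 and 10.16 in masseter at day 5, against 6.35, 6.83, 6.42, 6.42 and 6.64 at day 1. In biceps femoris it had 10.60, 7.0, 8.0 and 7.84 at day 5, against 7.25, 6.58, 5.94 and 6.55 at day 1. Masseter replicate 1 was the lowest and biceps femoris replicate 1 the highest of the day 5 arrays. The difference was 1.83 (SE 0.72, adjusted p = 0.299), and 2.57 without that biceps femoris array (adjusted p = 0.0116). No other fit that left out 1 array called RUNX1. Another RUNX1 probe set, with a low mean signal of 3.08, had changes of 0.05 in masseter and -0.04 in biceps femoris. Its difference was 0.09 (adjusted p = 0.804). The median of the 25 myogenic factors was 0.01.

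Several named genes had estimated changes of similar size in both muscles, some of them wide. NREP, a gene named for neuronal regeneration, fell by 4.33 in masseter and fell by 4.33 in biceps femoris, and the interval of the difference ran from -1.29 to 1.30. PPARGC1B, a coactivator of mitochondrial genes, fell by 2.93 in masseter and fell by 3.72 in biceps femoris, with an interval of -0.08 to 1.66. UCHL1, a deubiquitinating enzyme, rose by 2.09 in masseter and by 2.52 in biceps femoris (interval -2.15 to 1.28). FKBP5, a glucocorticoid target, had changes of 0.82 in masseter and 0.87 in biceps femoris, neither called (interval -1.28 to 1.18), and ATF4, a stress transcription factor, rose by 0.87 in masseter and by 0.59 in biceps femoris (interval -0.08 to 0.64). These intervals leave room for differences of about the size called elsewhere. Another ATF4 probe set had uncalled changes of 0.09 in masseter and 0.21 in biceps femoris, with a difference of -0.12 (adjusted p = 0.921). Other FKBP5 probe sets had differences of 1.12 (adjusted p = 0.804) and -0.0003. The former had uncalled changes of 0.53 in masseter and -0.60 in biceps femoris. The changes of AMPD3 and CDKN1A lay further apart. AMPD3, an AMP deaminase, rose by 5.18 in masseter and by 2.89 in biceps femoris, a difference of 2.29 (SE 0.95, adjusted p = 0.327). CDKN1A, a cell cycle inhibitor, rose by 3.73 in masseter and by 1.98 in biceps femoris (difference 1.75, SE 0.86, adjusted p = 0.428).

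The other lists had medians between -0.19 and 0.15. They were those of calcium handling (-0.05), the membrane and neuromuscular junction (0.07), amino acid and polyamine metabolism (-0.12), antioxidants and metallothioneins (0.04), glucocorticoid targets (0.08), p53 and growth arrest (0.15), immediate early genes (-0.18), the circadian clock (-0.19), inflammation (0.10) and the cell cycle (0.01). Named by the smallest p of their list, SELENOW, a selenoprotein, fell by 0.70 in masseter and fell by 1.62 in biceps femoris (difference 0.91, SE 0.21, adjusted p = 0.0784). ATG4A, a protease of autophagosome formation, fell by 0.79 in masseter and had a change of -0.01 in biceps femoris (difference -0.78, SE 0.18, adjusted p = 0.0852), while the other 5 ATG4A probe sets had differences of -0.14 to 0.66, none called by limma (adjusted p = 0.393 to 0.978). CRY2, a clock repressor, rose by 1.43 in masseter and had a change of 0.23 in biceps femoris (difference 1.20, SE 0.40, adjusted p = 0.216). The other CRY2 probe sets had masseter changes of 0.05 and 0.04, with differences of 0.03 and 0.04 (adjusted p = 0.978 and 0.919). PRKAG3, a regulatory subunit of the AMP-activated kinase in fast fibres, had a change of 0.75 in masseter and rose by 1.93 in biceps femoris (difference -1.18, SE 0.32, adjusted p = 0.14). Other PRKAG3 probe sets had differences of -0.05 and 0.08, without the biceps femoris rise.

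The number of called differences turned on single arrays. It was 266 without day 5 replicate 1 of the biceps femoris (86 positive, 180 negative) and 91 without day 1 replicate 3 of masseter (32 positive, 59 negative). In masseter it was 12, 29 and 17 without day 5 replicates 2, 3 and 5, and 11, 20, 10 and 10 without day 1 replicates 1, 2, 4 and 5. In biceps femoris it was 18, 9 and 20 without day 5 replicates 2, 3 and 4, and 13 and 12 without day 1 replicates 1 and 2. For the remaining 4 arrays it lay within 1.5 times of 48. Without day 5 replicate 1 of both muscles, a fit added after the data were seen, 515 probe sets were called (179 positive, 336 negative), all 48 among them.

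**Figure D5:**
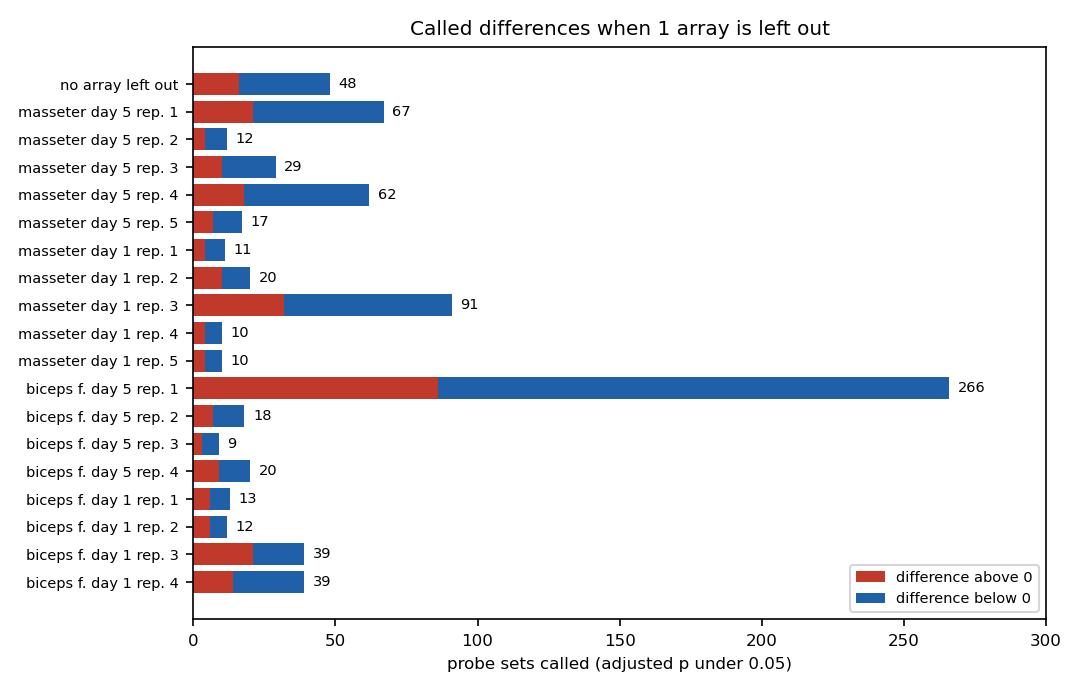
Number of probe sets with a called difference when each array in turn is left out, with positive differences in red and negative in blue. The count is 48 with all 18 arrays and reaches 266 without day 5 replicate 1 of the biceps femoris.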

How the data were processed

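Total RNA of each muscle sample was hybridised to 1 Affymetrix porcine array. The deposited values are log2 probe set values made by the authors with RMA, which corrects background, normalizes between arrays and summarises probes, per the submitters' processing notes. They were used as deposited, and the muscles had been normalized apart. RNA was extracted with Trizol and cleaned on columns, per the labels' protocols.

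Genes were named from the pig annotation or, failing that, the authors' homolog column: 19019 probe sets had 1 symbol (9910 genes), 91 several and 4889 none, and the names disagreed for 823. Each gene was represented by its probe set with the highest mean over the 18 arrays. The difference of changes was a contrast in a limma 3.58.1 fit (lmFit and eBayes, two-sided, R 4.3.3) of 18 arrays in 4 groups, without covariates, and each muscle's change was fitted on its own arrays. P-values were adjusted by Benjamini-Hochberg over 23999 probe sets, with a call at an adjusted p under 0.05. Named genes were up to 12 with the widest called differences each way, the member of each list with the smallest p, and 41 fixed muscle genes. Members and lists were chosen with earlier results of these data known. Errors are SD between arrays or SE from limma. On simulated data of 23999 probe sets with 200 changed, the fit recovered 57% at a log2 difference of 1, 92.5% at 2 and 98% at 3. The simulated noise was independent and had the same spread on every array. These rates therefore do not cover deviating arrays such as day 5 replicate 1.

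The sample descriptions tie masseter arrays with the same number to 1 animal, which was used as a block. Their deviations from the group means correlated between -0.03 and 0.12. Biceps femoris numbers name no animal. P-values rest on the spread between these arrays, whose number limits the precision. Alternatives were array weights, a variance for each muscle, trend and robust settings, further normalizations, blocks, a filter on low values and leaving out arrays. Sequences of the probes and genes were not used here, and some genes that the rule names are not reported here.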

Additional observations from a re-analysis of the deposited data

Results flagged for a closer look

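The difference of the changes itself passed the test for 19 named genes. It was 2.94 for OLFM1, 2.39 for FABP3, 2.08 for GPAM, 1.68 for ITGB6, 1.20 for KAT2B, 1.19 for AHCYL1 and 0.89 for OPCML, where masseter rose more or fell less. It was -1.74 for MAMDC2, -1.56 for the probe set named ZXDC, -1.47 for GCDH, -1.46 for STRBP, -1.24 for RPA3, -1.14 for ZNF79, -1.08 for CD164, -1.04 for MMUT, -1.04 for GRHPR, -1.04 for HOXC9, -0.93 for LYAR and -0.85 for WASHC5.

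Of 188 groups of values (47 probe sets in 4 groups), 14 had an array far from the others of its group, where chance gives about 1 in 20. In masseter at day 5 these were replicate 1 of OPCML (7.02, the highest) and replicate 2 of the DEAF1 probe set (7.65, the highest). In masseter at day 1 they were replicate 3 of HDAC3 (8.42), WASHC5 (8.53), GRHPR (9.0) and SRP68 (7.96), each the lowest, and replicate 2 of the glucuronyl epimerase probe set (7.29, the lowest) and of STRBP (7.13, the highest). In biceps femoris at day 5 they were replicate 1 of RPA3 (9.06, the lowest) and replicate 2 of the MACF1 probe set (6.60, the highest). In biceps femoris at day 1 they were replicate 4 of the glucuronyl epimerase probe set (7.50, the lowest), OPCML (6.73, the highest) and the RTF2 probe set (8.4, the highest), and replicate 2 of the UQCC1 probe set (5.95, the lowest).

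The 28S ribosomal RNA control, which no comparison used, averaged 12.69 ± 0.44 in biceps femoris at day 5 and 11.85 ± 0.20 at day 1 (SD, n = 4 each; change 0.84, exact permutation test, two-sided, p = 0.0286). In masseter it averaged 9.99 ± 0.35 at day 5 and 10.10 ± 0.15 at day 1 (SD, n = 5 each; exact permutation test, two-sided, p = 0.651).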

How the results depend on the processing

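The number of arrays limits the precision. The 48 called differences became 21 with the masseter animal as a replicate block, 24 with trend and robust settings and 527 with array weights. With the array number as a block in both muscles limma called 0 (smallest adjusted p 0.082), with 2800 at an unadjusted p under 0.05. Leaving out arrays or masseter animals gave 3 (without masseter animal 5) to 266 calls (without day 5 replicate 1 of the biceps femoris), and 515 without day 5 replicate 1 of both muscles, which was added after the data were seen. The biceps femoris numbers name no animal, and their deviations correlated between -0.21 and 0.11. The count of list genes called was 1, and it was 3 with the animal block, 0 with the number block, 35 with array weights, 3 after further quantile normalization, 10 with the BioC block, 2 for means over probe sets 1 to 19 with arrays left out and 35 without day 5 replicate 1 of both muscles. Calls ranged from 2047 to 4628 within masseter (3318 with all arrays) and from 2951 to 4412 within biceps femoris (4117). Over the alternatives, 2786 values of named genes kept their call or their lack of one, 273 lost the call and 75 gained it. Of the 95 named genes only 19 were called with all arrays, so most of the kept values are of genes without a call. The causes were not tested.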
